A study of Mus musculus with 6 samples.

Results

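The regions described here are all peaks on mouse chromosome 18 in 2 deposited lists, 1 of peaks named as specific to miR-137 knockout microglia (cKO) and 1 of peaks named as specific to control microglia (cWT). There were 359 such peaks, 230 cKO-specific and 129 cWT-specific, of 12105 in all. Membership follows from position alone, but the chromosome itself was chosen by its balance of peaks between the lists, so that balance is given as a description without a test. The study profiled microglia, the resident macrophages of the brain, by ATAC-seq, which uses a transposase to cut open DNA and tag it for sequencing. Both genotypes are C57BL/6J mice of 8 weeks carrying Tmem119-CreERT2, a recombinase switched on by tamoxifen and driven from a microglial gene, and both received tamoxifen on 7 days in a row at 7 to 8 weeks of age. The cKO mice are Mir137 loxP/loxP and the cWT mice Mir137 +/+. The labels give 3 libraries per genotype from about 50000 sorted cells, and a number of 4 mice that is not tied to libraries. The lists hold no values per library, so neither depth nor the spread between replicates can be measured, and every interval below covers counting error over peaks only.

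An accessible region of chromatin is one where nucleosomes leave room for transcription factors and other proteins; such regions include promoters at gene starts and enhancers that can lie far from the gene they act on. The gene nearest to a peak is therefore a label for its place and is not shown to be its target. Chromosome 18 carries several genes of microglial biology, among them Csf1r, the receptor on which microglia depend for survival, Cd74, the invariant chain of MHC class II, Cd14, a coreceptor for lipopolysaccharide, Bin1, a membrane-bending protein gene, and Tcf4, an E-protein transcription factor gene. It also carries the clustered protocadherins, neuronal adhesion genes arranged in 3 arrays, and the desmosomal cadherins. Positions below are on chromosome 18 of mm10. Gene spans come from a RefSeq table of the same assembly, which gives no strand, so gene starts and gene stops are both called gene ends.

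The cWT-specific share of the chromosome 18 peaks was 35.9% (129 of 359, exact Clopper-Pearson 95% interval 31.0 to 41.1), against 28.8% of all listed peaks. The ratio of cKO-specific to cWT-specific peaks was 1.78 here and 2.12 to 3.31 on the 19 other chromosomes with listed peaks. Their cWT-specific shares ran from 23.2% to 32.1%, with chromosome 13 (32.1%, interval 28.3 to 36.1) and chromosome 8 (32.0%, 28.4 to 35.8) next below chromosome 18. These 3 intervals overlap. Per Mb up to the last coding gene, chromosome 18 had 1.42 cWT-specific peaks, rank 8 of the 20 chromosomes (median of the others 1.38). It had 2.54 cKO-specific peaks per Mb, rank 18 (median of the others 3.44). A high share was the basis on which the chromosome was proposed, so its first place by share is no finding.

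**Figure D1:**
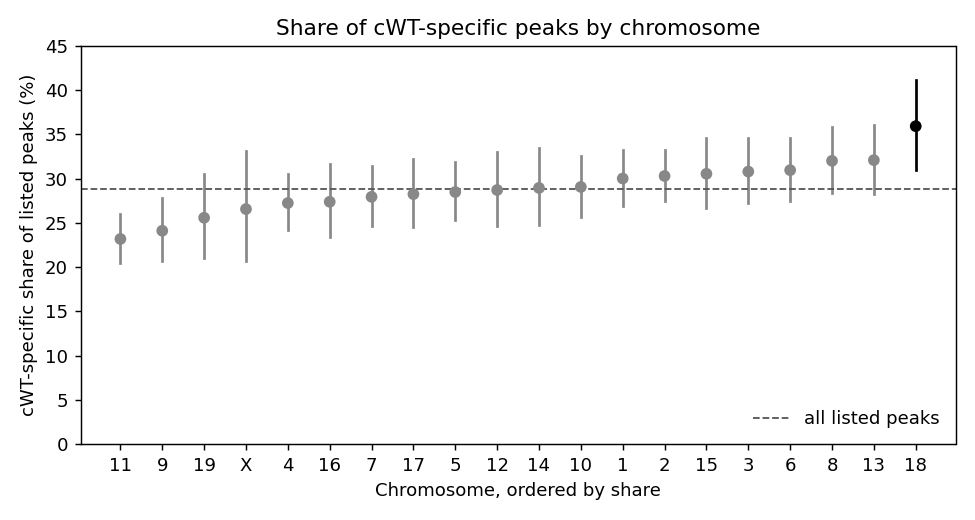
The share of listed peaks that are cWT-specific (%, points) with its exact 95% interval over peaks (lines) for each chromosome, in order of the share; the dashed line is the share over all chromosomes, 28.8%. Chromosome 18, in black, lies at 35.9%, and its interval overlaps those of chromosomes 13 and 8.

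The number in each peak's name rises with position in both lists on every chromosome, and was taken as its order among all peaks called for that genotype. Between the outermost listed peaks of chromosome 18, both included, there were 1005 numbers in cKO and 913 in cWT, a ratio of 1.10, the lowest of the 20 chromosomes (others 1.13 to 1.23). Of the 1005 cKO numbers 22.9% were cKO-specific (interval 20.3 to 25.6), against 25.8% of all numbered cKO peaks. Only chromosome X was lower, at 21.9%. Of the 913 cWT numbers 14.1% were cWT-specific (11.9 to 16.6), against 12.1% of all numbered cWT peaks. Chromosome 15 followed with 13.7% (11.8 to 15.8), whose interval overlaps. The chromosome 18 interval for cWT also includes the 12.1% of all numbered cWT peaks. These shares count the same peaks as the balance by which the chromosome was chosen, and are descriptions only.

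In their own properties the chromosome 18 peaks lay close to the rest of their lists. Median widths were 298 bp (cKO) and 324 bp (cWT), against 314 and 322 bp over the whole lists. The authors' signal, whose scale is not stated and which is used within a list only, had a median of 16.4 in cKO (lowest 5.83, highest 56.1; whole list 16.5) and 14.0 in cWT (6.22 to 54.5; whole list 13.7). The deposited p-value had a median of 0.812 in cKO and 0.881 in cWT. None of the 359 peaks had a p-value up to 0.05, and the lowest adjusted p-values the authors deposited here were 0.810 in cKO and 0.644 in cWT. The sources used here do not say what these p-values test. Each peak's name also calls it primary or secondary, words that the lists do not explain. Here 4 of the 230 cKO-specific and 2 of the 129 cWT-specific peaks were named primary. Primary peaks were not counted over the whole lists, so these counts are not shown to be particular to the chromosome.

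The peak with the highest signal of each whole list lay on this chromosome. In cKO it was a peak of 291 bp at 46153703 to 46153993, 11452 bp from an end of Trim36, a tripartite-motif ubiquitin ligase gene, with a signal of 56.1; the next cKO peak, on chromosome 5, had 54.4. A cWT-specific peak lay 61 bp from an end of the same gene (46212362 to 46212731, signal 14.4). In cWT it was a peak of 358 bp at 65490335 to 65490692, 11625 bp from an end of Malt1, the gene of a paracaspase that relays immune receptor signals to NF-kB, with a signal of 54.5; the next cWT peak, on chromosome 13, had 47.1. The Malt1 peak also had the highest authors' score on the chromosome in the cWT list (p-value 0.0696), whereas the Trim36 peak ranked 6th by score among the cKO peaks (p-value 0.231).

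Along the chromosome the peaks were spread unevenly. The fullest 10 Mb stretch, from 60 to 70 Mb, held 53 cKO-specific and 31 cWT-specific peaks, 23.4% of all on the chromosome, and the stretch from 30 to 40 Mb held 46 and 18. The cWT-specific share ran from 26.7% (11 and 4 peaks, from 10 to 20 Mb, interval 7.79 to 55.1) to 48.9% (23 and 22 peaks, from 50 to 60 Mb, interval 33.7 to 64.2). The intervals of these 2 stretches overlap widely. The stretch from 30 to 40 Mb, with 163 coding genes the richest in genes, had a cWT-specific share of 28.1% (17.6 to 40.8), near the 28.8% of all listed peaks. Of the 5 Mb stretches with 10 or more peaks, that from 55 to 60 Mb had the highest cWT-specific share. It held 8 cKO-specific and 13 cWT-specific peaks (61.9%, interval 38.4 to 81.9). That interval overlaps those of other stretches, such as 45 to 50 Mb (50.0%, 24.7 to 75.3). The stretch was picked as the highest, so nothing is read from its share. Its cWT-specific peaks include those of Lmnb1 and those far above Zfp608, described below.

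**Figure D2:**
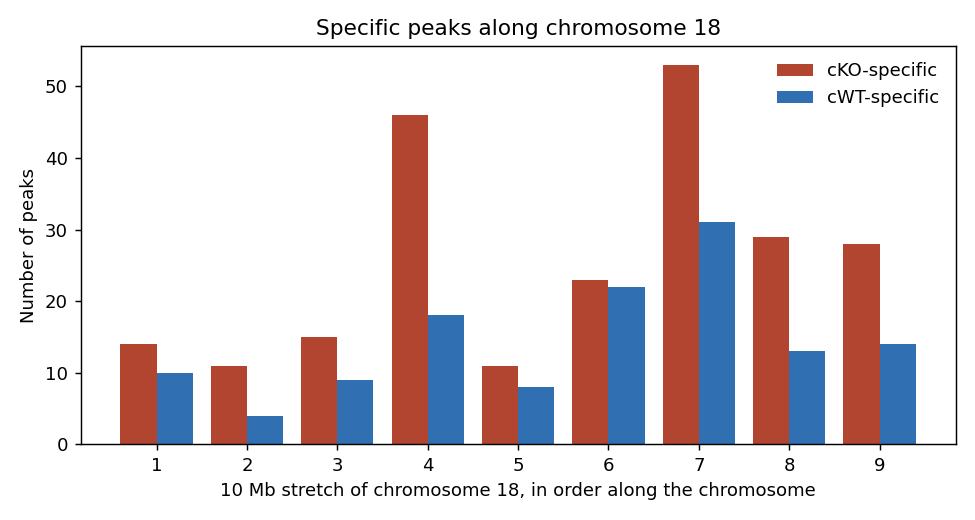
The number of cKO-specific (red) and cWT-specific (blue) peaks in each 10 Mb stretch, numbered in order along chromosome 18. Stretches 4 and 7 hold the most cKO-specific peaks, 46 and 53, and in stretch 6 the lists are nearly even, 23 and 22.

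Most peaks lay away from gene ends. Within 1000 bp of an end of a coding gene were 23 of the 230 cKO-specific peaks (interval 6.45% to 14.6%, whole list 13.7%) and 14 of the 129 cWT-specific peaks (10.9%, 6.06 to 17.5; whole list 15.9%). Gene interiors held 120 (52.2%) and 65 (50.4%), and intergenic stretches 87 (37.8%) and 50 (38.8%). Over the whole lists, interiors held 51.2% and 49.3%, and intergenic stretches 35.1% and 34.8%. Both lists thus had nearly the same makeup here at 1000 bp. Within 3000 bp, gene ends held 17.4% of the cKO-specific and 24.8% of the cWT-specific peaks. At 1000 bp the cWT-specific share was 37.8% at gene ends, 35.1% in gene interiors and 36.5% between genes. On the other chromosomes these shares were 31.8%, 27.8% and 28.4%. A higher share than elsewhere follows from the choice of the chromosome, so nothing is read from these differences. Medians of the distance to a coding gene end were 16988 bp for cKO-specific and 18815 bp for cWT-specific peaks, against 12412 and 15635.5 bp over the whole lists. Counted up to its last coding gene, chromosome 18 had the fewest coding genes per Mb of the 20 chromosomes, 5.64. Chromosomes 12 and X were close, both at 5.66.

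Assigning every peak to the coding gene whose end lay closest, up to 100 kb away, placed 215 cKO-specific and 112 cWT-specific peaks at 174 of the 511 coding genes. A cKO-specific peak was assigned to 134 genes (26.2%, against 22.5% of coding genes in the genome) and a cWT-specific peak to 87 of the 511, against 11.4% of coding genes in the genome. These genes were counted from the same peaks as the balance by which the chromosome was chosen, so nothing is read from these differences. Peaks of both lists met at 47 genes, cKO-specific peaks stood alone at 87 and cWT-specific peaks at 40. Most genes had few: 93 had 1 peak, 49 had 2 and 32 had 3 or more. Among those 32, cKO-specific peaks were the more numerous at 21, the lists were equal at 6, and cWT-specific peaks were the more numerous at 5, namely Lmnb1, Tcf4, Zfp532, Ablim3 and Sema6a.

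The gene with the most peaks was Zfp516, a zinc finger transcription factor gene at 82909688 to 83005314, with 7 cKO-specific peaks and 1 cWT-specific peak. One cKO-specific peak (82909620 to 82910073, signal 10.7, p-value 0.643) lay 158 bp from the gene's lower end and was the only one of the 8 with its midpoint inside the gene. On that side, 4 further cKO-specific peaks lay 6958 to 87765 bp away, among them a close pair at 82902202 to 82902534 and 82902589 to 82902872 with the same signal of 30.7. Beyond the upper end lay the remaining 2, at 6572 and 54755 bp. The cWT-specific peak (82861988 to 82862434, signal 13.5) was 47477 bp away. From the first to the last of the 7 there were 17 numbered cKO peaks.

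Celf4, a neuronal RNA-binding protein gene, had 5 and 1. At the upper end of this gene the lists lay side by side: a cKO-specific peak at 25754312 to 25754711 (signal 7.96) had its midpoint 9 bp from the end, and the cWT-specific peak at 25753426 to 25753655 (signal 12.5) lay 980 bp from it. Of the others, 3 consecutive cKO peaks lay deep in the gene, 70848 to 94444 bp from an end, with signals of 7.98 to 8.61, about as low as the peak at the end. Cxxc5, a CXXC zinc finger gene, had 5 cKO-specific peaks and 0 cWT-specific peaks. They ran from one at the gene's lower end (35829653 to 35830567, 915 bp wide, signal 15.9), through one inside the gene, to 3 beyond it. The farthest, 37740 bp from the gene (35899292 to 35899575), had the highest signal, 29.8. Csnk1g3, a casein kinase gene, had 4 and 1, all inside the gene. Its peak at 53944162 to 53944572 (signal 37.5, p-value 0.246) was the highest of the 5, and 2 others adjoined at 53935234 to 53936014 with the same signal of 20.2.

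**Figure D3:**
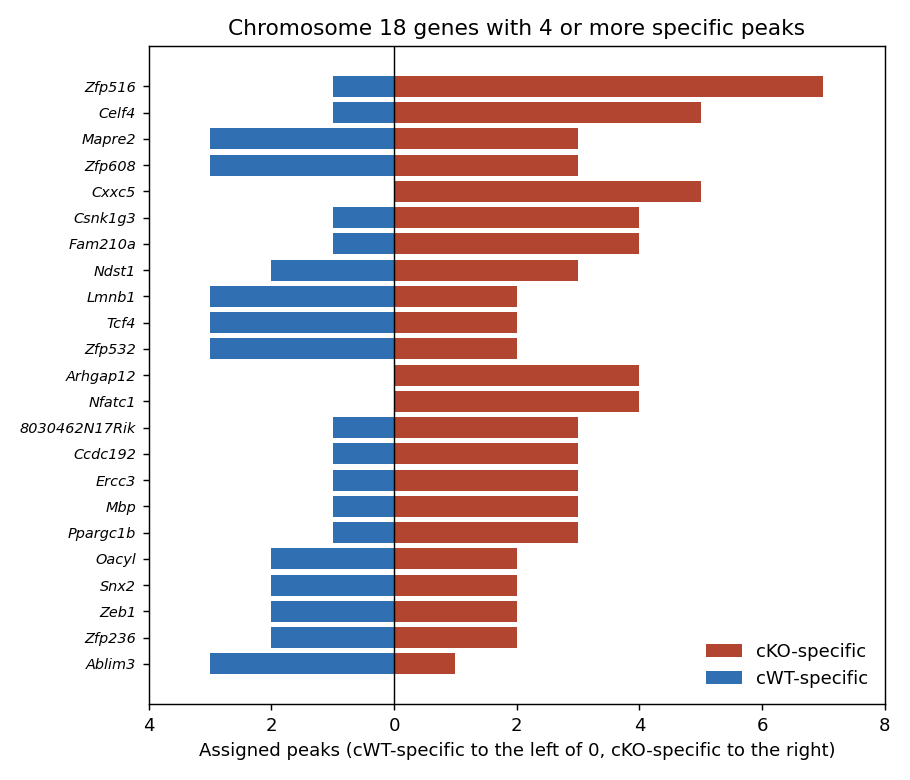
The number of cKO-specific (red, right of 0) and cWT-specific (blue, left of 0) peaks assigned to each chromosome 18 coding gene with 4 or more. Zfp516 leads with 7 and 1, and Cxxc5, Arhgap12 and Nfatc1 have cKO-specific peaks only.

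The 5 genes with more cWT-specific peaks differed in layout. Lmnb1, the gene of the nuclear lamina protein lamin B1, held 3 cWT-specific peaks in its lower part and 2 cKO-specific peaks in its upper part, all inside the gene. The cWT-specific peaks were consecutive in the numbering of that list, at 56709191 to 56709381 (signal 34.3), 56716339 to 56716543 (9.29) and 56727350 to 56727550 (16.4). The cKO-specific pair followed within 6 kb, at 56732952 to 56733309 (18.7) and 56733841 to 56734077 (7.13). At Zfp532, a zinc finger gene, 3 cWT-specific peaks adjoined without a gap from 65581759 to 65582383, each with the signal 18.3, and 2 cKO-specific peaks lay 25058 and 45982 bp outside the gene. With peaks of 1 list merged when within 500 bp, these 3 count as 1 region and the gene then has 2 cKO-specific and 1 cWT-specific.

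Ablim3, an actin-binding LIM protein gene, had a cWT-specific peak at each end, 47 bp (61799260 to 61799619, signal 8.70) and 94 bp (61911659 to 61911924, 12.5) away, and 1 within. Its single cKO-specific peak lay outside, 5511 bp from the gene (61793770 to 61793993, 20.6). At Tcf4 the 3 cWT-specific peaks lay at 69365332 to 69365734 (signal 18.4), 69595861 to 69596082 (7.38) and 69655525 to 69655724 (9.33). Of the 2 cKO-specific peaks assigned to it, the one at 69662618 to 69663727 was 1110 bp wide (14.3). A further cKO-specific peak deep in Tcf4 (69537529 to 69537738, 17.5) was over 100 kb from any coding gene end and was assigned to no gene, so 3 peaks of each list lay inside Tcf4. At Sema6a, a semaphorin gene, the cWT-specific peaks were 2 adjoining peaks at 47269218 to 47269930 (both 26.8), and the cKO-specific peak lay 785 bp from the gene's upper end (9.27). Merged, the 2 count as 1 region, and Sema6a then has 1 of each list.

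**Figure D4:**
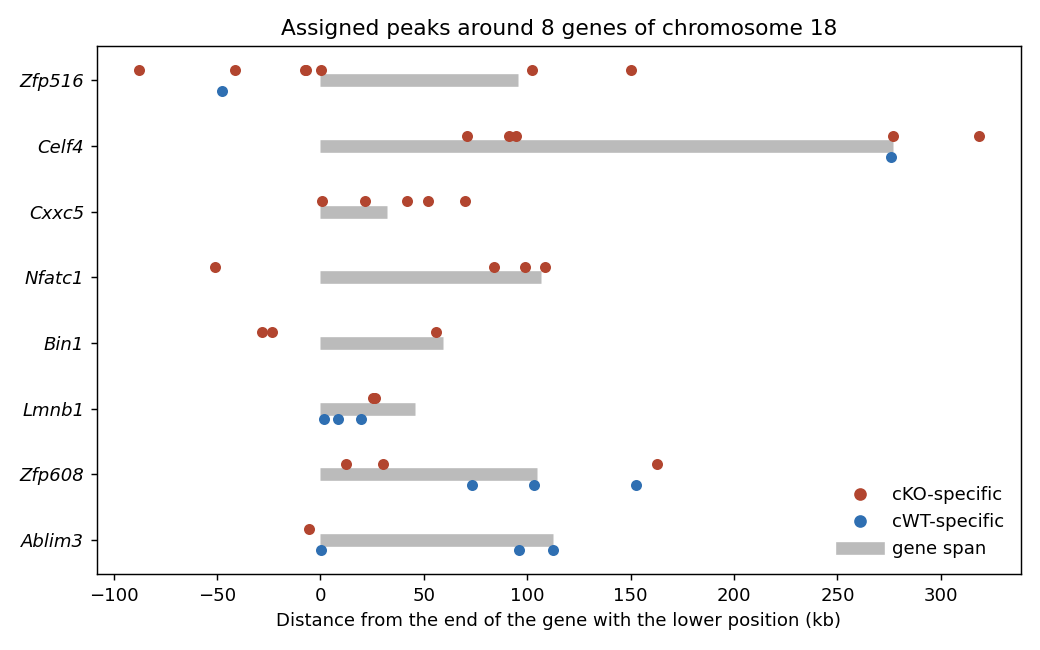
Peaks assigned to 8 genes, as distance in kb from the gene end with the lower position; grey bars are gene spans, red points cKO-specific and blue points cWT-specific peaks. Of the 8 peaks of Zfp516 only 1 lies inside the gene, while all of Lmnb1 lie inside, with 3 cWT-specific peaks below 2 cKO-specific ones.

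Genes with equal numbers showed no common layout. Mapre2, the gene of a microtubule end-binding protein, had cWT-specific peaks near its lower end, at 519 and 2186 bp (signals 6.54 and 12.2), and 2935 bp beyond its upper end (17.8), with cKO-specific peaks in between and farther out. Zfp608, a zinc finger gene, had 3 of each list, including a cKO-specific peak with a signal of 27.0 (54917935 to 54918487, p-value 0.295) and a cWT-specific peak 1521 bp from its upper end with the lowest signal of the cWT list on the chromosome, 6.22. Zeb1, a transcriptional repressor gene, held 2 cWT-specific peaks inside, and 2 cKO-specific peaks lay 31066 and 44229 bp away. Snx2, Oacyl and Zfp236 also had 2 of each.

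Among the 20 listed microglial and immune genes, 15 had a cKO-specific peak, 3 a cWT-specific peak, and 4 none, with 30 cKO-specific and 3 cWT-specific peaks in all. The cWT-specific share was 9.09%, the lowest of the gene groups shown that had any peak, beside 34.3% of all assigned peaks on the chromosome. Over all its 511 coding genes, 134 (26.2%) had a cKO-specific and 87 a cWT-specific peak. The group was listed with earlier results of these data known, and this contrast was not tested. It includes Cxxc5, described above, which gave 5 of the 30. Nfatc1, a calcium-responsive transcription factor gene, had 4 cKO-specific peaks. The one with the highest signal lay 50907 bp away (80555127 to 80555469, signal 26.4, p-value 0.293), 2 lay inside the gene (13.8 and 10.5) and 1 lay 1944 bp beyond its upper end (10.5). Bin1 had 3: 2 of them lay 23338 and 28173 bp below the gene (14.3 and 20.2) and 1 inside it, 3280 bp from its upper end (10.7).

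Cd74 held 2 cKO-specific peaks at 60806589 to 60806789 (signal 9.92) and 60807039 to 60807603 (12.8, p-value 0.337), both inside its 8.80 kb span. Hbegf, an EGF-family growth factor gene, and Ticam2, an adaptor gene of Toll-like receptor 4, also had 2 each inside the gene. Socs6, of the suppressor of cytokine signalling family, had 2 intergenic cKO-specific peaks. The stronger (88824606 to 88825069, signal 35.3, p-value 0.217) lay 40332 bp from the gene and ranked 4th by score among the cKO peaks of the chromosome. Nr3c1, the glucocorticoid receptor gene, had 1 inside and 1 outside, 41656 bp away (26.9). Map3k8, Ptpn2, Tnfaip8 and Il17b had 1 cKO-specific peak each and 0 cWT-specific peaks.

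The 3 cWT-specific peaks of the group were the one at Malt1 described above, one 23853 bp from Ndfip1 (signal 10.3), an adaptor gene of Nedd4-family ubiquitin ligases, and one in Pstpip2. Pstpip2 encodes an F-BAR protein of macrophages. There, a cKO-specific peak at 77797128 to 77797454 (signal 22.6, p-value 0.229) and the cWT-specific peak at 77797451 to 77797642 (20.1) shared 4 bp, 2741 and 2996 bp from the gene's lower end, and a second cKO-specific peak lay deeper in the gene (14.7). Csf1r, Cd14, Cd226 and Mzb1 had no assigned peak in either list. A missing peak says that none was named as specific, not that the gene was closed.

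**Figure D5:**
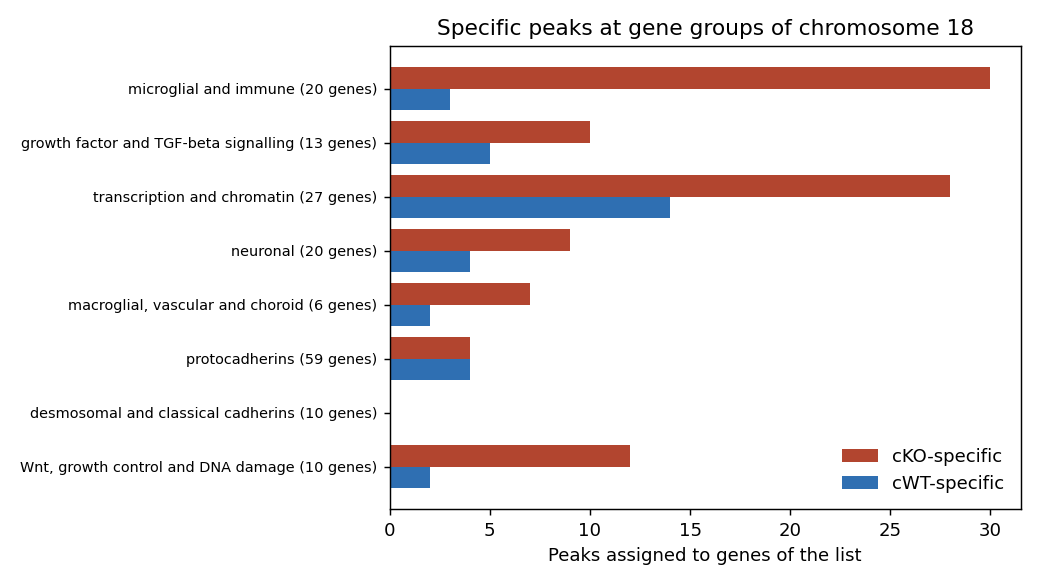
The number of cKO-specific (red) and cWT-specific (blue) peaks assigned to the genes of 8 groups, with the number of coding genes in brackets; a gene can be in more than 1 group. The microglial and immune group has 30 and 3, the transcription and chromatin group 28 and 14.

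Of 27 transcription and chromatin genes, 11 had a cKO-specific and 9 a cWT-specific peak, 7 had both and 14 neither, with 28 and 14 peaks; Zfp516, Cxxc5 and Nfatc1 gave 16 of the 28. The cWT-specific share of these peaks, 33.3%, was near the 34.3% of all assigned peaks. Of all 511 coding genes of the chromosome, 134 (26.2%) had a cKO-specific and 87 a cWT-specific peak. Egr1, an immediate early transcription factor gene, had 1 cWT-specific peak, 4849 bp from the gene (34856173 to 34856544, signal 25.1, p-value 0.206), second by score in the cWT list on this chromosome. Ctdp1, an RNA polymerase phosphatase gene, had 2 cWT-specific peaks. Among 13 growth factor and TGF-beta signalling genes, 7 had a cKO-specific and 5 a cWT-specific peak (10 and 5 peaks), again a cWT-specific share of 33.3%. The Smad genes, which relay TGF-beta signals to the nucleus, differed among themselves. Smad2 had 2 cKO-specific peaks (signals 9.93 and 10.6), Smad7, the inhibitory member, had 1 cKO-specific peak 3039 bp from the gene (18.4), and Smad4, the shared member, had 1 cWT-specific peak inside (11.3).

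Ldlrad4, whose product restrains TGF-beta signalling, held 8 peaks inside its 328 kb span, 5 cKO-specific and 3 cWT-specific, the most of any gene of the chromosome by position. Since the ends of Ldlrad4 are farther off than that of its neighbour, 5 of the 8 were assigned to Fam210a, and the other 3 to no gene; the 5 of Fam210a all lie in Ldlrad4. The cWT-specific peak at 68096919 to 68097132 (signal 27.4, p-value 0.304) was 4th by score in cWT. Of the cKO-specific peaks, 3 were consecutive in the numbering, from 68195107 to 68219299, with signals of 5.83 to 10.3. The lowest of these is also the lowest signal of the cKO peaks of the chromosome.

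Arhgap12, a GTPase-activating protein gene, had 4 cKO-specific peaks and 0 cWT-specific peaks, of which 2 adjoined at 6150730 to 6151264 with the same signal of 17.4 and 1 lay inside the gene (27.2). Pik3c3, the gene of the class III phosphoinositide 3-kinase of autophagy, held the second cKO-specific peak of the chromosome by score (30273132 to 30273402, signal 42.6, p-value 0.159). Nedd4l, a ubiquitin ligase gene, had 2 assigned cWT-specific peaks, both inside (signals 11.5 and 15.9). A cKO-specific peak inside it (64991274 to 64991812, 22.3) was over 100 kb from a gene end and was assigned to no gene. Among 10 genes of Wnt signalling, growth control and DNA damage, 7 had a cKO-specific and 2 a cWT-specific peak (12 and 2 peaks). Of all 511 coding genes 134 and 87 had one. With assignment limited to 10 kb, only 1 peak of each list remained in this group. The tumour suppressor gene Apc had 2 cKO-specific peaks inside (signals 15.9 and 9.84). Cables1, a cyclin-dependent kinase adaptor gene, had 1 of each list, the cWT-specific one inside (15.2, p-value 0.337).

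Of 20 neuronal genes 5 had a peak, beside 34.1% of all coding genes of the chromosome. They had 9 and 4 peaks, and Celf4 alone gave 5 and 1 of these. Of 6 macroglial, vascular and choroid genes, 4 had a cKO-specific and 2 a cWT-specific peak (7 and 2 peaks). Over all 511 coding genes of the chromosome, 134 had a cKO-specific and 87 a cWT-specific peak. Mbp, a myelin gene, had 3 cKO-specific peaks inside and 1 cWT-specific peak outside (signal of the latter 18.8), and Aqp4, a water channel gene of astrocytes, had none. Afap1l1 had 2 cKO-specific peaks, Pdgfrb, a receptor gene of pericytes, and Ttr, the transthyretin gene of the choroid plexus, had 1 each, and Slc12a2, an ion cotransporter gene, had 1 cWT-specific peak. Among microglial markers across the genome 5 of 7 had a cKO-specific peak and 1 a cWT-specific peak, beside 22.5% and 11.4% of all coding genes. For the marker genes of neurons, astrocytes and oligodendrocytes this was 1, 2 and 2 of 3 with a cKO-specific peak, and 1, 0 and 1 of 3 with a cWT-specific peak. The lists of specific peaks cannot show how pure the sorted cells were, and the part of other cells in these peaks was not tested.

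The protocadherin arrays, from 36930285 to 37841873, held the midpoints of 3 cKO-specific and 2 cWT-specific peaks, all in the gamma array. A further cKO-specific peak straddled the upper boundary, 96 bp from the end of Pcdhgc5 (37841693 to 37842245, signal 22.5). Within the boundaries, the cKO-specific ones lay 135 bp from an end of Pcdhga3 (37674189 to 37674751, signal 17.2), 68 bp from an end of Pcdhga8 (37725549 to 37725999, 14.9) and 1237 bp from Pcdhga12 (9.30). The cWT-specific ones lay 3693 bp from Pcdhga12 (18.4), and 86 bp from the pseudogene Pcdhgb8, and 675 bp from Pcdhgc3 (37806893 to 37807278, 27.9), the latter second by score among cWT-specific gene-end peaks. These genes overlap one another, so which of them a peak belongs to is uncertain. Of all 59 coding protocadherin symbols 52 had no assigned peak, and the 10 desmosomal and classical cadherin genes had none. Over all 511 coding genes of the chromosome, 34.1% had an assigned peak. Some gamma protocadherins with none assigned still held peaks inside, such as Pcdhga1 with 3 cKO-specific and 2 cWT-specific.

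The gene-end peaks with the highest authors' score in cKO were at Zmat2, a gene of a splicing factor (36793640 to 36794254, signal 34.2, p-value 0.123, 24 bp from an end), Ska1, a kinetochore gene (74207613 to 74208435, 32.6), Arsi, a sulfatase gene (60911559 to 60912149, 27.6), Ctnna1, the alpha-catenin gene (35118395 to 35119411, 26.2), and Arap3 (37999468 to 37999786, 17.5). The Zmat2 peak had the highest score of all cKO peaks on the chromosome. In cWT they were at Ercc3, a DNA helicase gene of transcription and repair (32240650 to 32240821, signal 33.2, p-value 0.263, 431 bp from an end), Pcdhgc3, Gm4841, Prob1 and Ccbe1. Their signals after Ercc3 were 27.9, 29.9, 14.0 and 16.1. At Ercc3 the lists lay next to each other, since 3 consecutive cKO-specific peaks followed from 32246552 to 32285416 (12.7 to 21.0).

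The 2 lists touched at 5 places, where a cKO-specific and a cWT-specific peak overlapped by 4 to 78 bp, at most 26.4% of either peak. These lay inside Ccdc192 (78 bp), Oacyl (40 bp), Synpo (16 bp), 8030462N17Rik (16 bp) and Pstpip2 (4 bp). Within 10 kb of a peak of the other list were 28 of the 230 cKO-specific peaks (12.2%; whole list 11.5%) and 26 of the 129 cWT-specific peaks (20.2%; whole list 25.2%). Runs of consecutive numbers reached 3 peaks at most, 9 times in cKO and 5 times in cWT. The 1 Mb window with the most cKO-specific peaks ran from the midpoint of the peak beginning at 60501039 and held 16 of them, the last ending at 61399154, and 6 cWT-specific peaks. It included those of Ndst1, Cd74, Pdgfrb and Ppargc1b. The 2 such cWT windows held 8 each and overlapped, from 64898783 to 66292158, over Nedd4l, Malt1, Zfp532, Oacyl and Ccbe1.

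Beyond 100 kb from any coding gene end lay 15 cKO-specific (6.52%; whole list 8.31%) and 17 cWT-specific peaks (13.2%; whole list 10.8%), a cWT-specific share of 53.1% (interval 34.7 to 70.9) against 33.9% of such peaks on other chromosomes, from which nothing is read for the same reason as above. Of these, 9 and 5 lay inside a long coding gene. Above Zfp608, 4 cWT-specific peaks lay 141530 to 556438 bp from that gene, from 55133848 to 55549248, with signals of 8.82 to 14.8 and with lncRNA genes or pseudogenes as nearest annotation; no cKO-specific peak lay among them. Far above Sall3, by contrast, the lists alternated between 81463117 and 81797184, with 3 peaks of each.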

How the data were processed

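ATAC-seq was done on 6 libraries, 3 per genotype, grouped by sample title. The tools named per the submitters' processing notes are HOMER 4.11, MACS2 2.2.7.1 and Bowtie2 2.4.4, and the builds mm10 and GRCm38. The sources used here do not give the step of each, the pooling of replicates, any read shift or the rule for specific peaks. The authors deposited 1 headerless list per genotype in which every peak has a p-value with its adjusted form, a signal and a score; these meanings were read from layout and values. The score the authors deposited equals -125 times log2 of the p-value, rounded down, in all 8615 and 3490 peaks. The IDR program, which rates agreement between replicates, scales its score in the same way, but no source used here says that it was run. No scale is stated for the signal in the deposited lists. Depth is unknown.

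Peaks were taken by chromosome, and the midpoint was assigned to the nearest end of a coding gene (RefSeq GRCm38.p6, 511 of 21887 on chromosome 18) within 100 kb. Intervals are Clopper-Pearson, 95%. No test was run, since the chromosome was chosen for its balance and peaks are not replicates. The members and 9 gene lists were chosen with earlier results of these data known; 1 list and 1 gene are not reported here. Named genes were those with at least 3 peaks, list members with peaks, the 5 highest-scored peaks and gene-end peaks of each list, and those at runs, windows and overlaps. Trim36, Ldlrad4 and the peaks above Zfp608 and Sall3 were singled out after their values were seen. Assignment, merging and overlap were checked on simulated data. Python 3.11.15, numpy 2.4.6, pandas 2.3.3, scipy 1.17.1 and matplotlib 3.10.9 were used.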

Additional observations from a re-analysis of the deposited data

How the results depend on the processing

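The cWT-specific share of 35.9% was 35.5% to 36.6% with peaks of 1 list within 500 bp merged, with peaks overlapping the other list left out, or with scores at or above the list median. Among p-values up to 0.5 it was 26.8% (30 and 11 peaks), where all chromosomes gave 17.1%. The share at gene ends became 17.4% in cKO and 24.8% in cWT with a window of 3000 bp (all chromosomes 23.9% and 24.8%), and 15.7% and 16.3% with all annotated genes. With assignment limited to 10 kb, 69 genes had a cKO-specific and 37 a cWT-specific peak. The microglial and immune group then had 13 and 1 peaks, and the transcription and chromatin group 10 and 2. Growth factor and TGF-beta signalling genes had 7 and 3, and the Wnt, growth control and DNA damage group 1 and 1. Neuronal genes had 3 and 1, the macroglial, vascular and choroid group 2 and 1, and the protocadherins 4 and 3. The larger count changed list at Ndst1 (2 peaks, 0 cKO-specific), Tcf4 (1, cKO-specific) and Sema6a (1, cKO-specific) at 10 kb, and at Zfp532 (3 peaks, 2 cKO-specific) with merging. Of the other gene and group counts, 87 stayed within 1.5 times of the reported value and 32 did not. Most of these 32 came from the 10 kb limit. Of the genes with at least 3 peaks, only Mapre2, Oacyl, Ablim3, Kcng2 and Pstpip2 stayed within 1.5 times at 10 kb. No peak then remained at Csnk1g3, Fam210a, Arhgap12, Ccdc192, Mbp, Sncaip, Spire1, Atp8b1, Dym or Map3k2. The highest share of a stretch was 61.9% (interval 38.4 to 81.9) with 5 Mb stretches. The numbered shares from the last number of chromosome 17 to the first of chromosome 19 were 22.4% and 13.7%. The settings for gene groups were chosen after seeing the data. No paired analysis was possible, since the values of a peak cannot be traced to any of the 3 libraries of its genotype. Leaving out a replicate was not possible for the same reason.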

Other observations

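Long parts of the chromosome held no specific peak of either list. The longest ran 5.50 Mb, from 15140749 to 20639981, over 12 coding genes that include Aqp4, the neural cadherin gene Cdh2 and desmosomal genes such as Dsc2 and Dsg2. In that stretch 7 numbered cKO peaks were not listed as specific, while 22.9% of the numbered cKO peaks over the chromosome were. The next, 4.48 Mb from 25796013 to 30273132, holds no coding gene between its ends, and 5 numbered cKO peaks lie there. Another stretch, 4.02 Mb from 84799614 to 88824606, ends at the Socs6 peak and includes the synaptic genes Neto1 and Cbln2. In the cWT list alone, 7.20 Mb from 39010584 to 46212362 were without a specific peak. There lay 33 numbered cWT peaks and 9 cKO-specific peaks, 2 of the latter at Nr3c1. Over the chromosome 14.1% of the numbered cWT peaks were specific.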
